A study of Mus musculus with 15 samples.

Results

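NRL binding at postnatal day 10 (P10) was compared with binding at postnatal day 2 (P2) over all 8996 peaks of the deposited quantitation table, with no peak left out. NRL was mapped by CUT&RUN, in which an antibody against NRL guides a nuclease to the protein inside permeabilised cells and the DNA released around it is sequenced. Each experiment used 250000 cells dissociated from retinas of C57BL/6J mice, and the labels name no sorting of cell types, no genotype difference and no treatment. The members are the 2 libraries of P10 (replicates 1 and 4) and the 2 of P2 (replicates 3 and 4), out of 8 libraries with a column and 15 with a label, the other columns being P4 and P28. Nothing in the labels ties replicates to separate animals or gives the number of retinas pooled. The p-values therefore reflect only how far these libraries differ, which may be technical.

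NRL is a basic leucine zipper (bZIP) transcription factor of the Maf family. It commits newborn photoreceptor precursors to the rod fate and, together with the homeodomain factor CRX, binds and activates the genes of the rod outer segment. In the mouse retina rods are still being born in the first days after birth, and at the end of the second postnatal week their outer segments elongate and the eyes open.

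The promoter windows below overlap peaks on both sides of the comparison, by 223 to 300 of their 300 bases. They are chosen examples, some of them from gene groups picked after their values were seen. Their motifs do not show how often a motif goes with a direction. Signal was measured over whole peaks and not at single letters. Each runs from 250 bases before to 50 bases after a start site and is read 5′ to 3′ on the gene's strand, from RefSeq on GRCm38.p6. Capitals mark the letters found on either strand of TGCTGA (the half-site bound by Maf factors, NRL included), TAATCC (the CRX site), TGANTCA (the AP-1 site) and TGACGTCA (the cAMP response element). A TGCTGA followed by NTCA would share its last 3 letters with TGANTCA. Pde6b, Samd11 and Unc119 lay under peaks called higher at P10, Dusp1 under a peak called lower only after centring of the libraries, and H3c2 under a peak called lower with and without centring.
Pde6b (chr5:108388123-108388422, plus strand): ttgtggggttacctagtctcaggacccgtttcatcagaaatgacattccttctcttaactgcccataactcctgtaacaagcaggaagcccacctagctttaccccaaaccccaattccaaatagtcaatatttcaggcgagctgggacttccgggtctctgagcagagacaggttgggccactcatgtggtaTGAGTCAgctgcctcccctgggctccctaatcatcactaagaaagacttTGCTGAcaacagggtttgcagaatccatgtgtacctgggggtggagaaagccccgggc
Samd11 (chr4:156255293-156255592, minus strand): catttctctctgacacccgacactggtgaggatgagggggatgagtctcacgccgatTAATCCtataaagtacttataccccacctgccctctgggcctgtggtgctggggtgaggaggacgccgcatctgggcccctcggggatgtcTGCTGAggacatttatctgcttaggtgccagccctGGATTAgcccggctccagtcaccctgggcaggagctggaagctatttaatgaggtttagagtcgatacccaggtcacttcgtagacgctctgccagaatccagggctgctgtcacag
Unc119 (chr11:78345334-78345633, plus strand): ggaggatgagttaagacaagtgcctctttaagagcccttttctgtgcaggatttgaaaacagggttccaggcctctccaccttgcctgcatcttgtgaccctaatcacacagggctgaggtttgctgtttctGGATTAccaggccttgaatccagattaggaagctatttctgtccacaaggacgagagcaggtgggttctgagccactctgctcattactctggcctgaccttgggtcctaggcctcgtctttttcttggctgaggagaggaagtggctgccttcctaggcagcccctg
Dusp1 (chr17:26508423-26508722, minus strand): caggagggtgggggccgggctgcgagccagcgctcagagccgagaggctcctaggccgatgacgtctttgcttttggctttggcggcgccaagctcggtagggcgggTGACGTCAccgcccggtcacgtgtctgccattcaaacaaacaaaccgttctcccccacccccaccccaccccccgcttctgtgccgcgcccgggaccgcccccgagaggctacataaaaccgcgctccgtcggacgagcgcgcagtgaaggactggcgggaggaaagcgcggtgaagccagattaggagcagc
H3c2 (chr13:23752095-23752394, plus strand): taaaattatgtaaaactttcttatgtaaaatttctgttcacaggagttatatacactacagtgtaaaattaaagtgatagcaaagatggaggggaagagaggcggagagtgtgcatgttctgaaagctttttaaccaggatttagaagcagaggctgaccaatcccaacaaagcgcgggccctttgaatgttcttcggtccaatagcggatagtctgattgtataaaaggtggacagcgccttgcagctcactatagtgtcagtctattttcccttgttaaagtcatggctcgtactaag

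Pde6b, a catalytic subunit of the rod phosphodiesterase, carries TGCTGA and TGANTCA in this window, and its promoter peak held 59.9 and 58.7 RPKM in the P10 libraries, against 1.77 and 2.14 RPKM in the P2 libraries. RPKM here are reads scaled to the peak's own length and to the deposited scale of each library. Samd11, a repressor of non-rod genes in rods, carries TGCTGA and 2 copies of TAATCC, and its peak held 118 and 101 RPKM at P10, against 12.2 and 12.9 RPKM at P2. Unc119, whose protein carries transducin to the outer segment, has TAATCC under a peak, annotated 1 to 3 kb from a start site, of 79.4 and 54.6 RPKM at P10, against 3.32 and 4.52 RPKM at P2. In these 3 peaks every P10 library was far above every P2 library. The Dusp1 window, of a MAP kinase phosphatase gene, has TGACGTCA and its peak held 2.28 and 3.32 RPKM at P10, against 7.30 and 5.06 RPKM at P2. The H3c2 window, of a replication-dependent histone H3 gene, held none of the 4 motifs, and its peak had 0.599 and 0.474 RPKM at P10, against 5.27 and 10.1 RPKM at P2. At the last 2 peaks both P10 libraries were below both P2 libraries, at levels near those of a few reads.

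Motif content of the windows is given as a description. Each peak over at least 100 bases of a RefSeq window was given 1 such window, its own gene's first and then the largest overlap. Of these 3514 windows, 62 lay under a peak called higher at P10 after centring and 85 under one called lower. TGCTGA was in 33.9% (21) of the windows called higher, in 12.9% of those called lower and in 16.9% of all windows under a peak, against 19.5% of all 32851 RefSeq windows. TAATCC was in 17.7% of the windows called higher, 2.35% of those called lower, 6.92% of all under a peak and 7.06% of all RefSeq windows. TGACGTCA ran the other way after centring, at 1.61 (1 window), 14.1, 5.09 and 1.79% in the same order. TGANTCA was in 6.45, 8.24, 4.24 and 7.81%. Among the 1281 windows under a peak called higher on the deposited scale, a larger set, TGCTGA stood at 22.2% and TAATCC at 8.90%. TGACGTCA stood there at 4.37%, near its 5.09% of all windows under a peak, and was in 0 of the 7 windows called lower. The median GC content was 56.7% in the windows called higher, 60.3% in those called lower and 61.7% in all under a peak. The 32851 windows were not reduced in this way, and those of alternative starts of 1 gene overlap. A match is no evidence of a bound site.

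NRL signal was higher at P10 than at P2 over most of the table. On the deposited scale 4360 peaks (48.5%) were called higher at P10 and 140 (1.56%) lower, by limma on log2(RPKM + 1) with Benjamini-Hochberg adjustment over all 8996 peaks and a call at an adjusted p under 0.05. Both libraries of P10 were above both of P2 at 7121 peaks (79.2%) and below them at 335 (3.72%). The median peak had 6.27 RPKM at P10 and 2.17 RPKM at P2, and the median log2 difference was 1.18 on the log2(RPKM + 1) scale, a 2.27-fold shift of RPKM + 1. By limma-voom on the reads, with no such pseudocount of 1 RPKM, it was 1.45. More rods in the retina, more NRL signal per rod and technical differences between libraries of the 2 ages cannot be told apart in these bulk data.

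When each library was centred on its median peak, which removes that shift, 715 peaks (7.95%) were called higher at P10 and 456 (5.07%) lower. All 715 were among the 4360 higher on the deposited scale, and all 140 lower peaks were among the 456. The other 316 lower peaks therefore stood below the general rise without a called decrease on the deposited scale, and 3645 peaks were higher only there. No peak was called in opposite directions by the 2 scales. The deposited scale is the authors' own, with a basis not given in the sources used, so the main counts are given on both scales.

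The P2 libraries were shallower over these peaks than the P10 libraries. The P10 libraries had 195736 and 227692 reads inside peaks, or 3.08 and 2.84% of their scale, against 78255 and 49430 reads, or 0.986 and 0.940%, in the P2 libraries. The median peak had 12 and 15 reads in the P10 libraries and 6 and 4 reads in the P2 libraries, and 3 reads at the median width equal 1.16 to 1.77 RPKM in these 4 libraries. Of the 4360 higher peaks, 68 had no read in either P2 library and 868 (19.9%) had 1 to 3, and of the 140 lower peaks 4 had no read and 50 had 1 to 3 at P10. Across peaks the log2 values correlated with Pearson r of 0.89 between the P10 replicates and 0.60 between the P2 replicates, and with 0.37 to 0.43 between libraries of the 2 ages. The peak set leans to P10, since 7489 of the 8996 peaks (83.2%) are in the authors' P10 list and 1217 (13.5%) in the P2 list. The part that depth and the choice of peaks had in the shift was not tested. The counts fell by more than 1.5 times when a P10 library was left out: without replicate 1, 2104 peaks were higher and 74 lower on the deposited scale, and 162 higher and 188 lower after centring. Without P10 replicate 4 these were 2358 and 76, and 220 and 190. Without P2 replicate 4 they were 2870 and 100, and 624 and 301.

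**Figure D1:**
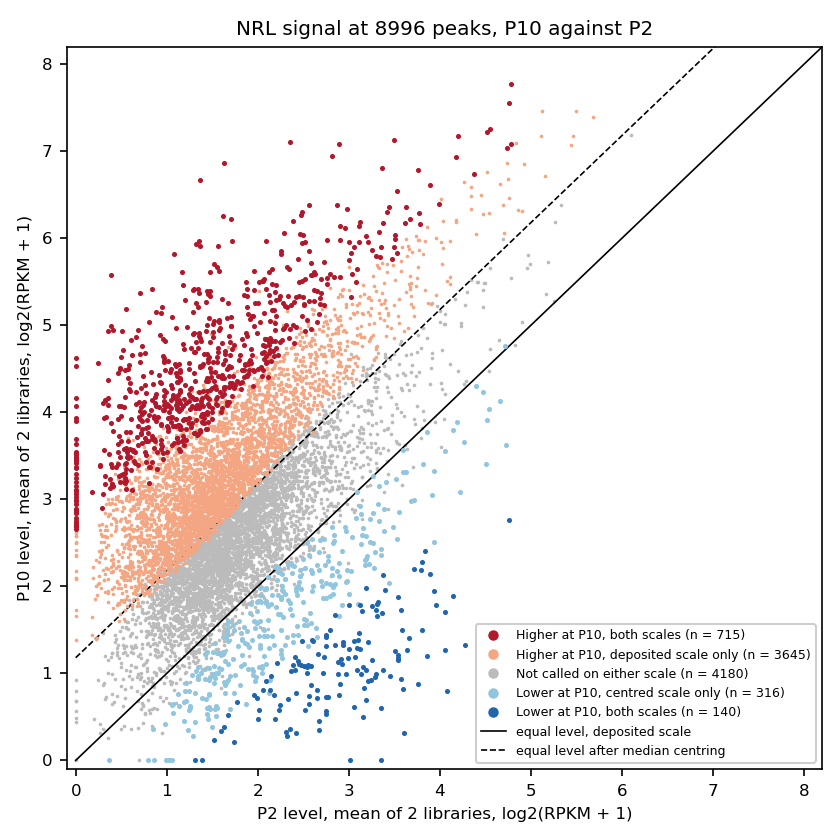
Each point is 1 of 8996 peaks, at its mean log2(RPKM + 1) over 2 libraries of P10 (vertical axis) and of P2 (horizontal axis), coloured by its calls on the deposited and centred scales. Most points lie above the solid line of equal level, and the dashed line, 1.18 higher, is where libraries centred on their medians would be equal.

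A smaller share of promoter peaks than of other peaks was called higher at P10. Of 5106 promoter peaks, those at most 1 kb from the transcription start (TSS) of a gene, 40.0% were called higher, with a median log2 difference of 1.03, and of the 3890 other peaks 59.6% were higher, with a median of 1.5. Peaks 1 to 3 kb from a TSS (562, 67.1% higher, median 1.70) and in introns beyond 3 kb (1718, 65.2%, median 1.63) stood above intergenic peaks (1305, 50.2%, median 1.25). After centring, 3.41% of promoter peaks and 13.9% of the others were called higher, with medians of -0.15 and 0.31. So the median promoter peak stood below, and the median peak elsewhere above, the table's own median difference.

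The decreases lay mostly away from promoters. Of the 140 peaks lower on both scales, 59 (42.1%, Wilson 95% interval 34.3 to 50.4) were in introns and 52 (37.1%, 29.6 to 45.4) between genes, and 10 (7.14%, 3.93 to 12.6) were at promoters, whereas promoters made up 56.8% of the table. Of the 456 lower after centring, 141 (30.9%) were promoter peaks. The intervals cover counting error only.

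The gap between promoters and other peaks was also present among peaks of like strength at the other ages. Peaks were split into 4 equal bins by their mean log2 level in the P4 and P28 libraries, which take no part in the difference between P10 and P2. From the weakest to the strongest bin, the median log2 difference was 0.83, 0.87, 1.05 and 1.41 at promoters and 1.28, 1.37, 1.56 and 2.00 at the other peaks. Promoter peaks were wider, with a median of 399 bp against 252 bp. The part of width in the gap was not tested.

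**Figure D2:**
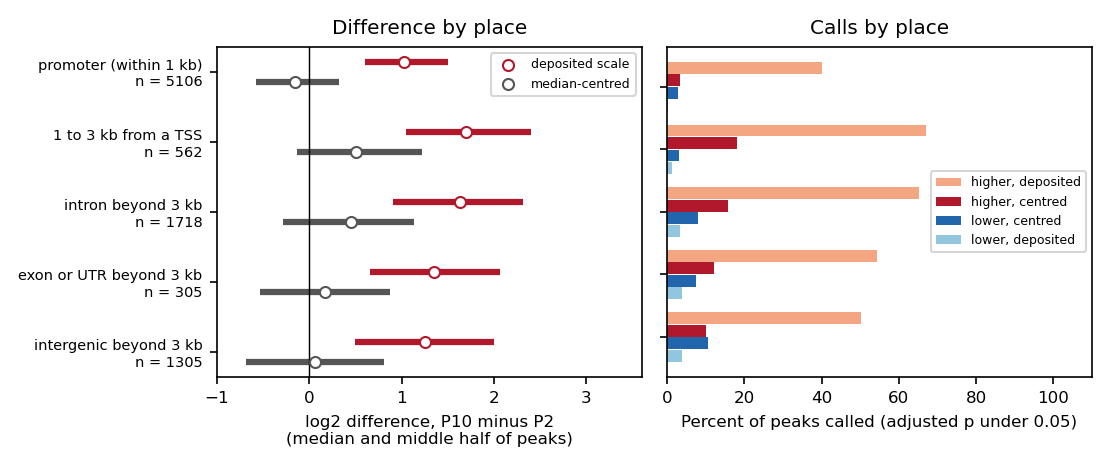
Left, the median (circle) and interquartile range (bar) of the log2 difference, P10 minus P2, by place of the peak, on the deposited and the centred scale. Right, the percent of peaks called in each direction: promoters had the lowest share called higher (40.0%) and peaks 1 to 3 kb from a TSS the highest (67.1%).

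The authors called 1 peak list per age, and these lists, made from the same experiments, describe the called peaks further. Of the 6469 peaks in the P10 list and not in the P2 list, 3824 (59.1%) were higher and 0 lower on the deposited scale, and 644 (9.96%) higher and 25 lower after centring. Of the 1020 in both lists, 424 (41.6%) were higher and 0 lower, a share below the 48.5% of all peaks, with a median log2 difference of 1.09. After centring 65 (6.37%) of these were higher and 53 (5.20%) lower. Of the 197 in the P2 list and not in the P10 list, 104 were lower and 0 higher, and 175 were lower after centring. The 140 lower peaks had median levels of 6.69, 5.62, 1.17 and 1.14 RPKM at P2, P4, P10 and P28. Of these, 88 (62.9%) were in the P4 list, beside 35.0% of all peaks, and 4 (2.86%) in the P28 list, beside 38.6% of all peaks. The calls fix that P10 is below P2 in this set, and beside that the P4 median was near that of P2 and the P28 median near that of P10. The 4360 higher peaks had medians of 1.85, 3.89, 9.40 and 4.13 RPKM at the same ages, where the calls fix a high P10. The same order of ages held over all 8996 peaks, with medians of 2.17, 3.51, 6.27 and 3.81 RPKM. The P4 and P28 values come from libraries that the comparison of P10 with P2 did not use, apart from sharing the estimate of spread.

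**Figure D3:**
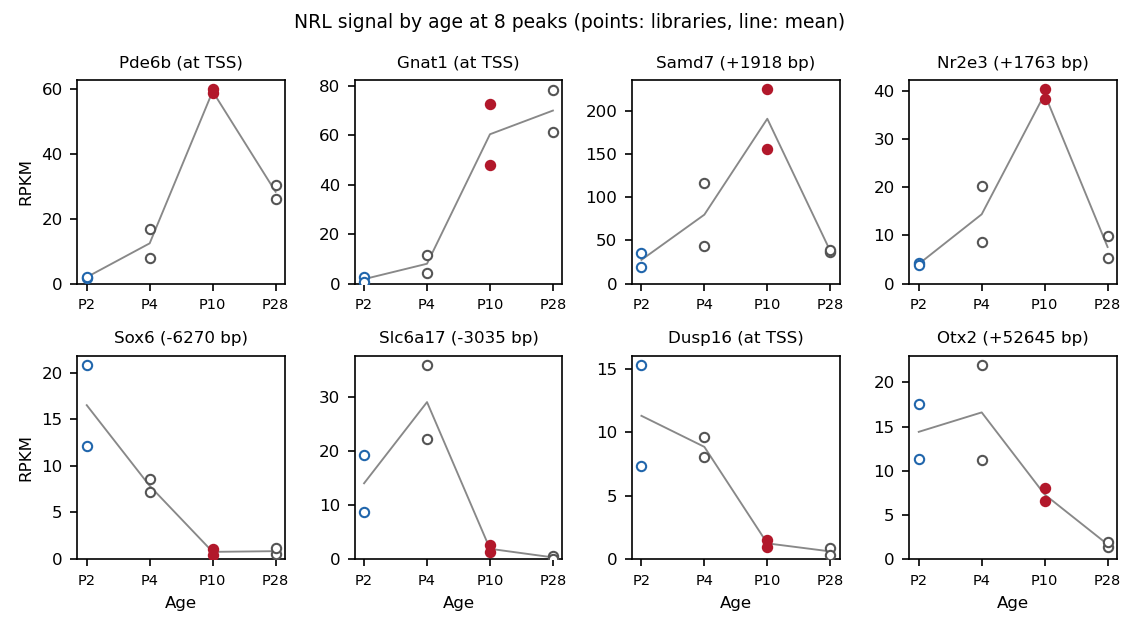
RPKM at 8 peaks in each of the 2 libraries of P2, P4, P10 and P28 (points), with the mean (line); filled points are P10. The 4 upper peaks are highest at P10 or, for Gnat1, at P28 (mean 70.1 RPKM, against 60.5 at P10), and the 4 lower peaks have means of 7.31 RPKM or below at P10 and of 11.3 to 16.5 RPKM at P2.

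The 10 highest differences were read among peaks that were called on both scales, did not overlap between the ages, had at least the median level and lay within 50 kb of the TSS of a protein-coding gene. There were 491 such peaks of 426 genes called higher. Of the 10 highest, 9 are described here. Dpf3, a subunit of BAF chromatin remodelling complexes, had a peak annotated to an intron, -4635 bp from the TSS, where minus means upstream. It held 122 and 109.7 RPKM at P10, against 1.9 and 2.29 RPKM at P2 (log2 difference 5.24 ± 0.57 (SE), adjusted p = 3.2e-06, 4.06 after centring). The P10 libraries had 550 reads there and the P2 libraries 9, a ratio of scaled reads of 56.2 (exact 95% counting interval 29.4 to 123). Slco4a1, an organic anion transporter, also had an intron peak, of 60.7 and 35.9 RPKM at P10, against 0.704 and 0 RPKM at P2 (5.19 ± 0.55, adjusted p = 3.2e-06). It had 2 reads at P2 in all, so that its ratio of scaled reads, 111, has a counting interval of 30.3 to 919. At both peaks every P10 library was far above every P2 library, and neither gene belongs to phototransduction.

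The other 7 ran from 4.74 to 4.60. A peak -5503 bp from Eno1, the glycolytic enzyme enolase, averaged 55.7 ± 4.49 RPKM at P10 and 1.27 ± 1.16 RPKM at P2 (SD, n = 2 each). A second Pde6b peak, annotated to a 3′ UTR at chr5:108431286-108431590, averaged 40.8 RPKM at P10 and 0.826 RPKM at P2. A peak -4812 bp from Hsp90aa1, a cytosolic chaperone, averaged 76.8 and 2.18 RPKM at P10 and P2. A peak 1605 bp from Inpp5d, an inositol phosphatase, averaged 61.7 and 1.69 RPKM in that order. A peak -1701 bp from AW549877 averaged 35.7 and 0.583 RPKM, and a peak 4802 bp from Ubr2, a ubiquitin ligase, 30.9 and 0.362 RPKM. The Ubr2 peak lies at chr17:46928100-46928273, and the Prph2 peak given below at chr17:46912112-46912749. The peak near St8sia1, the ganglioside GD3 synthase, had 26.5 and 21.0 RPKM at P10 and no read in either P2 library, so that it was at least 9.80-fold higher, set against 3 reads over the 2 P2 libraries. Of these 9 peaks, 8 stayed called under each of 16 other settings, and the St8sia1 peak under each of the 15 that kept it. Centring was 1 of these settings, and the naming rule already required that call. Being the largest differences, the peaks were also the likeliest to stay called.

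**Figure D4:**
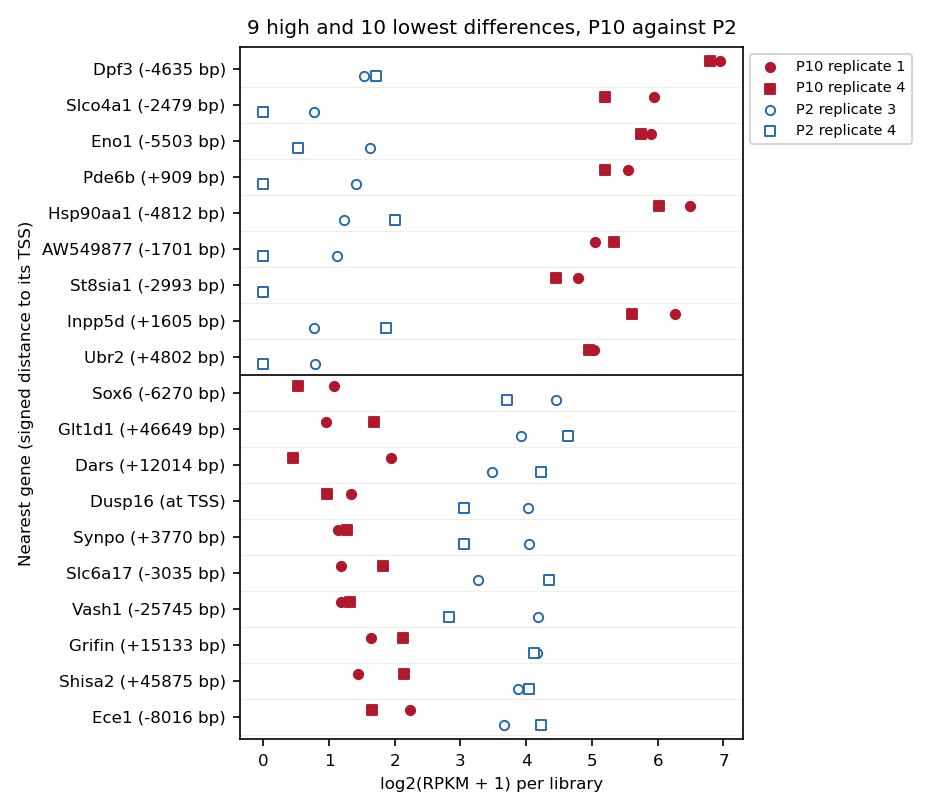
log2(RPKM + 1) in each library for 9 of the 10 highest and for the 10 lowest differences that met the naming rule, with P10 filled and above P2 open in each row. As the naming rule required, every P10 library lies to the right of both P2 libraries above the line, and to the left below it.

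Genes were read in 19 lists at their strongest peak within 50 kb of the TSS by the authors' annotation, the one with the highest mean over all 8 libraries, a choice in which the P10 level takes part. Over all 5978 protein-coding genes with such a peak, 45.1% were called higher and 0.820% lower on the deposited scale, and 6.83% higher and 3.66% lower after centring. The median log2 difference of these genes was 1.12. Counts for a list are read against these shares and are no test, and a number alone in parentheses after a gene is its log2 difference, P10 minus P2, on the deposited scale.

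Genes of rod phototransduction and of the outer segment, in 4 lists with 38 members, had a peak in 36, of which 33 (91.7%) were higher at P10 and 0 lower. The median difference was 2.63, and after centring 20 (55.6%) were higher and 0 lower. At each of the 36 genes both P10 libraries were above both P2 libraries. This also held at 4731 of all 5978 protein-coding genes at their strongest peak, and at 79.2% of all peaks.

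The cascade itself, which turns photon capture into hydrolysis of cyclic GMP, was higher at 8 of 8 genes. Gnat1, the rod transducin α subunit, had a promoter peak of 72.8 and 48.2 RPKM at P10, against 2.77 and 0.761 RPKM at P2 (4.55 ± 0.58, adjusted p = 1.1e-05, 3.36 after centring). The P10 libraries held 424 reads in this peak and the P2 libraries 13. Gnb1, the transducin β subunit, had 169 and 121 RPKM at P10, against 15.3 and 19.9 RPKM at P2 (2.97), and its 3 other peaks were also higher on both scales. Pde6b (4.35), Pde6g (3.04) and Pde6a (2.84), the subunits of the phosphodiesterase, rose on both scales. Aipl1, its chaperone (1.55), and Gngt1, the transducin γ subunit (1.41), were higher on the deposited scale only.

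Of the rod channels, exchanger and guanylate cyclase genes 7 of 8 were higher, 2 of them after centring. Cnga1, a subunit of the rod cyclic-nucleotide-gated channel, averaged 69.8 RPKM at P10 and 7.81 RPKM at P2 (3.03, adjusted p = 0.00034). Its partner Cngb1 (2.28), the potassium channel subunit Kcnv2 (2.38), the cyclase activators Guca1a (2.10) and Guca1b (1.84) and the exchanger Slc24a1 (1.39) were higher on the deposited scale only. The cyclase Gucy2e had 5.75 RPKM at P10 and 2.14 RPKM at P2 (1.18, adjusted p = 0.067) and was not called.

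All 6 genes of phototransduction shut-off with a peak were higher, 4 after centring. The calcium sensor recoverin, Rcvrn, averaged 30.4 ± 9.54 RPKM at P10 and 0.323 ± 0.457 RPKM at P2 (SD, n = 2 each; log2 difference 4.58, adjusted p = 4.3e-06) at a 3′ UTR peak with 1 read at P2. The Rcvrn promoter peak was weaker and not called, with 5.02 and 5.47 RPKM at P10, against 3.51 and 1.52 RPKM at P2 (0.89, adjusted p = 0.12). Gnb5, the partner of RGS9 (2.90), the kinase Grk1 (2.70) and Pdc, phosducin (2.3), were higher on both scales. Sag, rod arrestin, averaged 102 RPKM at P10 and 19.5 RPKM at P2 (2.39), and Rgs9bp, which anchors RGS9, 7.40 and 0.885 RPKM (2.17), and neither was called after centring. Sag and Pdc were thus among the rod genes with the most signal at P2. Grk1 was not called with RPKM as deposited, whose widths are those of other peaks.

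Genes of outer segment structure, trafficking and retinoid clearance were higher at 12 of 14, 8 after centring. Unc119 (3.78), Fscn2, the retinal fascin (3.56), Reep6 (3.54) and Prph2, a disc rim tetraspanin (3.48), led, and the Prph2 intron peak averaged 48.1 ± 7.44 RPKM at P10 and 3.37 ± 0.297 RPKM at P2. Its partner Rom1 averaged 108 RPKM at P10 and 19.9 RPKM at P2 (2.37), and Rp1, an axoneme protein, 149.9 and 22.5 RPKM (2.69). Retinol dehydrogenase Rdh8 (2.92) and Prom1, of the disc edge (2.73), rose on both scales, and Rdh12 (2.56), Tulp1 (2.25), the retinoid transporter Abca4 (2.14) and Rp1l1 (1.3) on the deposited scale only. Cdhr1 (1.09, adjusted p = 0.079) and Prcd (0.93, adjusted p = 0.10) were not called.

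Genes of photoreceptor transcription factors were higher at 14 of 17, and 5 of these, Esrrb, Samd11, Nr2e3, Samd7 and Mef2d, also after centring. The orphan nuclear receptor Esrrb had an intron peak of 158 and 115 RPKM at P10, against 5.93 and 6.97 RPKM at P2 (4.19 ± 0.56, adjusted p = 1.6e-05). Samd7, a rod repressor that works with polycomb proteins, had 225 and 156 RPKM at P10, against 18.8 and 35.8 RPKM at P2 (2.80 ± 0.57, adjusted p = 0.00062). Nr2e3, the nuclear receptor that NRL activates and that represses cone genes, had an exon peak of 38.3 and 40.5 RPKM at P10, against 4.26 and 3.86 RPKM at P2 (3.00 ± 0.56, adjusted p = 0.00028). Each of these had its highest mean at P10 among the 4 ages, with 119 RPKM at P28 for Esrrb, 37.6 for Samd7 and 7.59 for Nr2e3.

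Crx and Otx2, the homeodomain factors above NRL, and the bHLH factor Neurod1 were called higher on the deposited scale and not after centring. The calls were also lost on leaving out 1 library, at Crx P10 replicate 1, at Otx2 P2 replicate 4 or P10 replicate 4, and at Neurod1 P2 replicate 3 or either P10 library. A Crx peak 6890 bp from the TSS had 57.9 and 40.0 RPKM at P10, against 9.82 and 9.54 RPKM at P2 (2.2, adjusted p = 0.0032, 1.02 and adjusted p = 0.076 after centring), and Neurod1 19.5 and 16.3 RPKM, against 3.40 and 5.14 RPKM (1.86, 0.67 after centring). Rorb (2.10), which acts upstream of Nrl, and Casz1 (2.22) were likewise called on the deposited scale only, as were Nr1d1 (1.79), Rora (1.76), Esrra (1.63) and Rax (1.47). Nr1d2 (1.05, adjusted p = 0.084) and Prdm1, which keeps photoreceptor precursors from the bipolar fate (0.22, adjusted p = 0.69), were not called. At Nrl itself the strongest of 3 peaks, at the promoter (chr14:55524898-55525124), had 14.6 and 13.7 RPKM at P10, against 16.1 and 0 RPKM at P2 (1.87, adjusted p = 0.066). The ages overlapped there, with 29 reads in P2 replicate 3 and none in P2 replicate 4. The other 2 Nrl peaks were higher on the deposited scale (2.00 and 1.49, adjusted p = 0.0050 and 0.025) and not after centring (0.82 and 0.30).

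The Otx2 locus held peaks of different course. The promoter peak had 9.70 and 30.7 RPKM at P10, against 6.78 and 1.46 RPKM at P2 (2.07, adjusted p = 0.0094). A pair of peaks at -67120 and -67506 bp, in an intron, were also higher on the deposited scale, with 35.6 and 46.0 RPKM at P10 and 5.71 and 13.7 RPKM at P2. Downstream, the peak at chr14:48608516-48609287, 52645 bp from the TSS, had 6.53 and 8.08 RPKM at P10, against 11.3 and 17.5 RPKM at P2 (-0.86, adjusted p = 0.17, -2.05 and adjusted p = 0.0034 after centring). The peak at 68207 bp was called lower after centring too (-1.43, adjusted p = 0.034). So after centring the downstream peaks were called lower while the others were not called.

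Genes of bZIP factors, the class of NRL, were higher at 12 of 25 (48.0%), close to the share of all genes, and 1 of them, Bach1, after centring. The Bach1 intron peak averaged 32.2 RPKM at P10 and 2.06 RPKM at P2 (3.46, adjusted p = 0.00010). At Fos, of the AP-1 family, an intergenic peak -18301 bp from the TSS had 74.1 and 51.0 RPKM at P10, against 15.2 and 11.7 RPKM at P2 (2.12, adjusted p = 0.0088, 0.94 and adjusted p = 0.20 after centring), a call also lost without P2 replicate 4 or P10 replicate 1. At Jun, which encodes the c-Jun of the series title, the promoter peak had 12.1 and 11.7 RPKM at P10, against 11.0 and 5.53 RPKM at P2 (0.54, adjusted p = 0.40) and was not called. Fosb (1.89), Atf6 (1.92) and Nfe2l1 (1.85) were higher on the deposited scale only, Nfe2l1 not without P10 replicate 1. Jund, with 9.14 RPKM at P10 and 11.9 RPKM at P2 (-0.32), and Cebpa, with 4.07 and 6.92 RPKM (-0.79), were called lower after centring (adjusted p = 0.030 and 0.025). Crem (1.6), the PAR factor Dbp (1.68), Ddit3, of the stress response (1.44), and Mafa (1.86) were among the others called higher, while Junb (1.12, adjusted p = 0.075) and Atf3 (1.25, adjusted p = 0.051) were not called.

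Among the 18 cone genes 12, the cone opsins Opn1sw and Opn1mw among them, had no peak, with no share of all genes to set beside this. Of the other 6, 5 were higher, 1 of them, Clca3a1, after centring (3.18 on the deposited scale, adjusted p = 0.012 after centring). Gnb3 (2.32), Gnat2, the cone transducin α subunit (2.18), Gulo (1.65) and Gngt2 (1.59) were higher on the deposited scale, Gnb3 not without P10 replicate 1. The Gnat2 peak averaged 11.7 RPKM at P10 and 1.83 RPKM at P2.

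Markers of other retinal cells are given by the number with a peak, with no share of all genes to set beside it. Of 18 bipolar markers 5 had a peak and 1, Bhlhe23, was higher (1.4, adjusted p = 0.037), a call lost under 9 of the 15 other settings that kept it. Irx6 had 1.99 RPKM at P10 and 5.11 RPKM at P2 (-1.01, adjusted p = 0.068) and was called lower after centring (-2.2, adjusted p = 0.0024). Of 25 progenitor and Notch genes 9 had a peak, and Notch1 (1.56) and Rax (1.47) were higher on the deposited scale, calls lost under 7 of 16 and 8 of 15 other settings. Hes6 (-0.04) and Id2 (-0.30), between 3.94 and 5.12 RPKM at either age, were called lower after centring (adjusted p = 0.048 and 0.028). None of the 13 Müller glia markers and none of the 17 microglia and vessel markers was the nearest gene of a peak within 50 kb, and of 11 pigment epithelium markers Mitf alone was, with 5.06 RPKM at P10 and 4.90 RPKM at P2 (0.05). Of the amacrine, horizontal and ganglion cell markers 3 of 20 had a peak, and Slc6a9 (1.57) and Prox1 (1.25) were higher on the deposited scale, calls lost under 8 of 15 other settings each (adjusted p up to 0.96 and 0.93). The rod markers Gnat1, Pde6b, Nrl, Nr2e3 and Sag each had a peak.

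Genes of the photoreceptor synapse were higher at 14 of 18 (77.8%, beside 45.1% of all genes), 6 after centring. Cplx4, a complexin of ribbon synapses, averaged 29.8 RPKM at P10 and 2.05 RPKM at P2 (3.37, adjusted p = 0.00018), and Ctbp2, whose RIBEYE isoform builds the ribbon, 43.3 and 3.61 RPKM (3.27, adjusted p = 0.00030). Stx3 (2.97), the scaffold Pclo (2.75), Cacnb2 (2.74) and Elfn1 (2.59) were the other 4 called on both scales. The Stx3 peak had 26 reads at P10 and 1 at P2, and its call was lost by limma-voom with median-of-ratios size factors. The presynaptic proteins Snap25 (1.89), Syp (1.89), Sv2b (2.1) and Bsn (1.39) were higher on the deposited scale only. Syt1 (0.78, adjusted p = 0.19), Dag1 (0.75, adjusted p = 0.18), Egflam (0.75, adjusted p = 0.17) and Dlg4 (0.32, adjusted p = 0.61) were not called.

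Cilium genes were higher at 13 of 22, 4 after centring. Arl3, a small GTPase that releases lipidated cargo in the outer segment, averaged 49.2 ± 5.68 RPKM at P10 and 4.08 ± 0.0204 RPKM at P2 (3.30). Bbs7 (3.23), Arl6 (2.93) and Ttc8 (2.43), of the BBSome and its recruiting GTPase, were also higher on both scales, while Cep290 (0.73, adjusted p = 0.17), of the transition zone, was not called. The Arl6 peak had 24 reads at P10 and 1 at P2, and its call was lost by limma-voom with median-of-ratios size factors.

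Glycolysis and lactate genes were higher at 12 of 16, 6 after centring. After Eno1 came the glucose-6-phosphate isomerase Gpi1 (3.05), the lactate transporter Slc16a1 (2.88), the lactate dehydrogenase genes Ldhb (2.87) and Ldha (2.66) and the hexokinase Hk1 (2.51), each called on both scales. The Ldhb peak had 16 reads at P10 and 1 at P2. Its call was lost with RPKM as deposited and by limma-voom with median-of-ratios size factors. Slc2a1, the glucose transporter, had 8.70 RPKM at P10 and 6.5 RPKM at P2 (0.32, adjusted p = 0.61), and Gapdh 4.77 and 3.73 RPKM (0.29, adjusted p = 0.61). So the genes of 1 pathway ranged from an increase among the 10 highest to differences within the spread. The 6 called after centring were read at peaks beyond 3 kb from the TSS. The 10 read at promoter peaks, Slc2a1 and Gapdh among them, were not called after centring, so gene and place cannot be told apart here.

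Ribosomal, cell cycle and chromatin genes had medians below that of all genes, and most were read at promoter peaks (20 of 22, 19 of 21 and 17 of 23), whose median over the table was 1.03. Cytosolic ribosomal protein genes were higher at 6 of 22 (27.3%), with a median of 1.00, or at 10 by the average of the peaks of each gene, and Rpl10a (2.72) was the 1 called after centring. Cell cycle genes were higher at 10 of 21 (47.6%, beside 45.1% of all genes), with a median of 0.98, and E2f3, with 32.1 RPKM at P10 and 3.39 RPKM at P2 (2.91, adjusted p = 0.00040), was the 1 called after centring. Mcm2, of the replicative helicase (2.19), and Ccne1, cyclin E1 (2.02), were higher on the deposited scale. Chromatin regulator genes were higher at 11 of 23 (47.8%), with a median of 0.82. The histone demethylase gene Kdm5b (2.45) and Smarca4, the BAF ATPase (2.04), were higher on the deposited scale only, and Ezh2, the polycomb methyltransferase (0.76, adjusted p = 0.22), was not called. Tet3, an enzyme that oxidises methylcytosine, was higher on both scales (3.25), and Hdac1 (-0.42) and Cbx5 (-0.20) were lower after centring (adjusted p = 0.018 and 0.022).

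**Figure D5:**
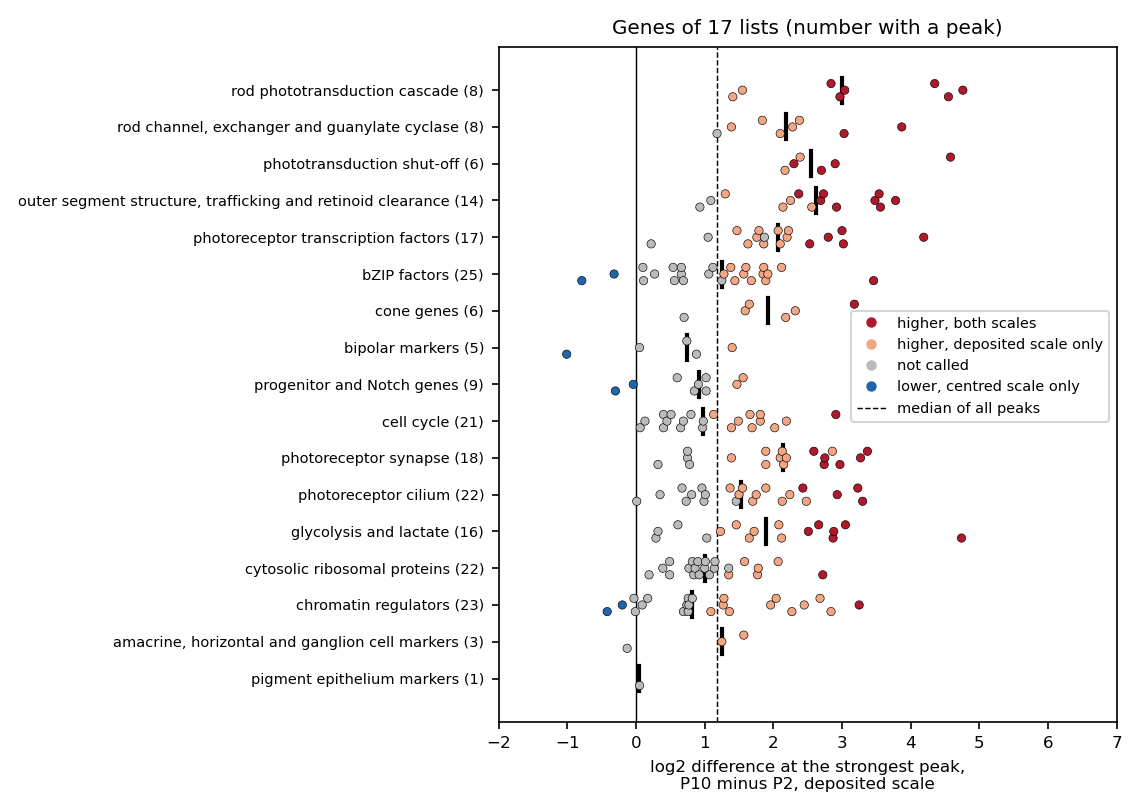
Each point is 1 gene at its strongest peak, placed by its log2 difference, P10 minus P2, on the deposited scale and coloured by its calls; black ticks are list medians and the dashed line is the median of all peaks, 1.18. The 4 rod lists lie almost wholly to the right of the dashed line, and ribosomal, cell cycle, progenitor and bipolar genes mostly to its left.

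The 10 lowest differences were taken by the same rule from 21 eligible peaks of 20 genes. Sox6, a SoxD transcription factor, had an intron peak at chr7:115866122-115866405 of 1.11 and 0.439 RPKM at P10, against 20.8 and 12.1 RPKM at P2 (-3.28 ± 0.48, adjusted p = 3.6e-05, -4.46 after centring). The P10 libraries had 3 reads there and the P2 libraries 65, a ratio of P2 over P10 of 23.6 (exact 95% counting interval 7.72 to 117). Glt1d1, a putative glycosyltransferase, had an intron peak of 0.938 and 2.23 RPKM at P10, against 14.2 and 23.8 RPKM at P2 (-2.96, adjusted p = 0.00015). Dars, the cytosolic aspartyl-tRNA synthetase, had 2.84 and 0.375 RPKM at P10, against 10.2 and 17.7 RPKM at P2 (-2.66, adjusted p = 0.00049). At these 3 peaks the P4 means lay between the 2 ages, at 7.85, 5.90 and 6.46 RPKM, and the P28 means were all below 1 RPKM.

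Dusp16, a MAP kinase phosphatase that acts on JNK, was the promoter peak of the set, at chr6:134760919-134761437. It had 1.52 and 0.962 RPKM at P10, against 15.3 and 7.33 RPKM at P2 (-2.39 ± 0.49, adjusted p = 0.00060), and a second Dusp16 promoter peak also fell (1.27 RPKM at P10 and 5.22 RPKM at P2, -1.45, adjusted p = 0.022). Between them an intron peak rose on the deposited scale, with 9.80 and 8.32 RPKM at P10, against 2.80 and 0 RPKM at P2 (2.36, adjusted p = 0.0045). Dusp16 was 1 of 27 genes with 1 peak higher and another lower on the deposited scale, out of 6860 genes named by the annotation. Glt1d1, Vash1 and Shisa2 were others among the 10.

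The other 6 ran from -2.33 to -1.99. Synpo, an actin-associated protein (-2.33), Slc6a17, a transporter of neutral amino acids (-2.3), and Vash1, a tubulin carboxypeptidase (-2.26), averaged 1.32, 1.9 and 1.38 RPKM at P10, against 11.3, 14 and 11.7 RPKM at P2. Grifin (-2.25), Shisa2 (-2.17) and Ece1, the endothelin-converting enzyme (-1.99), averaged 2.75, 2.55 and 2.93 RPKM at P10, against 16.7, 14.6 and 14.6 RPKM at P2. The Slc6a17 and Ece1 peaks were higher at P4 (29 and 18 RPKM) than at P2. Grifin lost its call in the fit with a replicate block, Ece1 without P10 replicate 4 (adjusted p = 0.084), and Shisa2 in 3 settings, among them without P10 replicate 1. The other 7 stayed called under all 16 settings, of which centring was already required by the naming rule.

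The 10 promoter peaks lower on both scales were looked up after their values were seen. Besides both Dusp16 peaks and H3c2 (-2.44) they belonged to Borcs5 (-2.22), Smim38 (-2.22), Ttyh1 (-2.15), Pkdcc (-1.64), Nisch (-1.43), Tbx2 (-1.37) and Adamts1 (-1.34). Tbx2, a T-box transcription factor, had 0.549 and 1.74 RPKM at P10, against 3.51 and 5.30 RPKM at P2 (adjusted p = 0.018). Borcs5, a subunit of the BORC complex of lysosomes, had another peak, 7160 bp from its TSS, that was higher on both scales, with 30.6 and 45.3 RPKM at P10, against 0.627 and 2.84 RPKM at P2 (3.94, adjusted p = 0.00016).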

How the data were processed

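CUT&RUN with an anti-NRL antibody on retinal cells gave the deposited tables; per the submitters' processing notes, the tools were MACS2 2.2.5, bedtools 2.29.0, Bowtie2 2.3.5.1, Trimmomatic 0.38, Picard 2.20.8 and SAMtools 1.9, with builds GRCm38.p6 and ASM584v2. The step of each tool is not stated there, nor whether the DNA spike-in named in the labels set the scale. The quantitation table holds RPKM by the authors, as its values show, since the deposited header names no unit. The values are whole reads over a width and 1 scale per library, but from the second column on the width is that of a peak 39 rows earlier per column, from a vector of 9035 widths. In P10 and P2 replicate 4 columns 56.9 to 57.6% of peaks were divided by a width off by over 1.5 times. Every value came out as a read number at most 0.003 from whole, and RPKM were rebuilt with each peak's own width; 39 widths outside the table were solved as the smallest that gave whole reads. The authors' deposited peak lists, with their own score and signal, were used for presence only (overlap of 1 bp). Place, distance and nearest gene are the authors' annotation, and 8991 peaks matched a RefSeq gene.

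The test was that of limma 3.58.1 (R 4.3.3; two-sided, trend and robust options) on log2(RPKM + 1), with a mean per age over the 8 libraries, 4 residual degrees of freedom and no filter on low peaks; p-values were adjusted by Benjamini-Hochberg over 8996 peaks. Differences on this scale understate those of weak peaks. The centred fit subtracts each library's median. In simulated data for P10 against P2 over 8996 peaks, 21% of 100 peaks changed 4-fold and 77% of 100 changed 8-fold were called, with 7 false calls. The changed peaks were drawn only from those at or above the median read level. The simulation had a fixed spread and no general shift between the ages, so its rates do not cover weaker peaks. The members and lists were chosen with earlier results of these data known. Named are the 10 highest and 10 lowest peaks by the rule in the text, up to 3 genes of each list by lowest adjusted p, 14 fixed loci, and further list members that passed the test; list members named that did not pass, and the second Rcvrn peak, were chosen after their values were seen. Tables and plots were made with SciPy 1.17.1, pandas 2.3.3, Matplotlib 3.10.9 and NumPy 2.4.6 under Python 3.11.15. Another 7 labelled libraries were not analysed here. Values of a few named genes are not reported here, though counts over lists include them.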

Additional observations from a re-analysis of the deposited data

How the results depend on the processing

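The counts of called peaks depended on the scale and the settings, and lower peaks outnumbered higher ones with median-of-ratios size factors and in the centred fit without P10 replicate 1. Against 4360 higher and 140 lower peaks, RPKM as deposited gave 2432 and 83, a pseudocount of 0.1 gave 3143 and 75, peaks with at least 10 reads on average 2877 and 45 of 4364, limma-voom with median-of-ratios size factors 653 and 731, and centring 715 and 456. The share of called peaks that were higher was 96.9%, against 61.1% after centring and 47.2% with size factors. The median difference of 1.18 became -0.00, 1.55, 1.41 and -0.02 after centring, with the pseudocount, with the filter and with size factors, and 1.45 by limma-voom on the deposited scales. The columns of P10 and P2 share only replicate number 4, so the numbers cannot pair them; with a replicate block over the 8 libraries, where P10 replicate 1 has a level of its own and drops out of the contrast, 1604 peaks were higher and 77 lower, the median was 1.10, and 68 list genes were higher, against 134. Leaving out 1 library gave 2104 to 4947 higher, 74 to 153 lower, 96.6 to 97.0% higher and a median of 1.11 to 1.23; after centring 162 to 770 higher, 188 to 457 lower and 46.3 to 67.5% higher. The centred fit with the filter gave 227 lower and 77.3% higher. The 33 rod genes became 20 after centring, and 26 to 35 with 1 library left out; the 134 list genes became 46 after centring, 44 with size factors and 81 to 147 with 1 library left out. The settings that left out P4 or P28 libraries, and those of the centred fit, were chosen after seeing the data. Of the 68 named peaks that were called, 40 stayed called under every one of the 16 settings that gave a value. The call was lost in at least 1 setting at 28 and reversed at 0, and the causes were not tested. For the 10 highest and 10 lowest the naming rule already required the call after centring. The median peak had 6 and 4 reads in the P2 libraries. In simulated data, where changed peaks were drawn from those at or above the median read level, 21% of those changed 4-fold were called. Smaller changes, and changes of weaker peaks, were not simulated.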

Other observations

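Replication-dependent histone genes are a group picked after its values were seen, given without a test. Of 21 peaks within 1 kb of the TSS of 20 such genes, 10 (47.6%) were lower and 1 (4.76%) higher after centring, beside 2.76 and 3.41% of all promoter peaks. On the deposited scale 1 (4.76%), at H3c2, was lower and 4 of 21 were higher, beside 0.196 and 40.0% of all promoter peaks. Their median log2 difference was -0.09, against 1.03 over all promoter peaks and 0.87 over the 168 other promoter peaks of chromosome 13. Their median level was 7.05 RPKM at P10 and 6.14 RPKM at P2. H4c8 had 1.72 and 2.05 RPKM at P10, against 6.54 and 4.16 RPKM at P2 (-1.11, adjusted p = 0.050, not called; -2.30 and adjusted p = 0.0016 after centring), whereas H2bc11 had 63.9 and 60.2 RPKM at P10, against 11.9 and 13.3 RPKM at P2 (2.21, adjusted p = 0.0030). Some of these genes are similar in sequence, so that reads may be split or lost between them in the authors' counting, which was not tested.

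Genes of dual-specificity phosphatases, also picked after the fact, had 18 peaks at 10 genes, of which 6 (33.3%) were higher and 3 (16.7%) lower on the deposited scale, beside 48.5 and 1.56% of all peaks. After centring 0 were higher and 5 (27.8%) lower, beside 7.95 and 5.07%. An intron peak of Dusp10 had no read in either P10 library and 16.1 and 2.79 RPKM in the P2 libraries (-3.01, adjusted p = 0.00035). At Dusp1 an exon peak had 70.9 and 55.3 RPKM at P10, against 20.2 and 30.6 RPKM at P2 (1.3, adjusted p = 0.083), while the promoter peak was lower after centring (-2.10, adjusted p = 0.0041).

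Of 123 peaks nearest a microRNA gene, 72 were higher and 3 lower on the deposited scale (58.5 and 2.44%, beside 48.5 and 1.56% of all peaks). After centring 9 (7.32%) were higher and 8 (6.50%) lower, near the 7.95 and 5.07% of all peaks. Near Mir183, a sensory-cell microRNA, 4 peaks were higher, 2 of them after centring, the strongest with 52.1 and 42.7 RPKM at P10, against 3.97 and 6.74 RPKM at P2 (2.96, adjusted p = 0.00049). A peak in a 3′ UTR near Mir7008 had 0.517 and 1.23 RPKM at P10, against 14 and 11.2 RPKM at P2 (-2.88, adjusted p = 8.5e-05).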
